A study of Mus musculus with 6 samples.

Results

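Thioredoxin, its reductases, the peroxiredoxins and sulfiredoxin form the thiol-based peroxide defence that was followed here by 10 genes: Srxn1, Txn1, Txnrd1, Txnrd2 and Prdx1 to Prdx6. Every probe set whose gene annotation lists one of these symbols was taken, also where it lists a second gene. This gave 25 of the 45101 probe sets on the array, for 8 of the 10 genes, out of 19324 gene symbols in the annotation. No probe set was assigned to Prdx5 or Prdx6, whose levels are not analysed here. RNA came from whole back skin of 6 female mice of 1 litter on postnatal day 2.5, on a mixed FVB/N/C57BL/6 background, with 1 Affymetrix array per mouse. The 3 caNrf2 mice (K5cre-caNrf2, described as tg/tg) carry a constitutively active Nrf2, and the 3 control mice (K5cre-wt, tg/wt) do not; K5cre is common to both groups. Cre under the keratin 5 promoter acts in basal keratinocytes and their descendants, whereas the RNA came from all cells of the skin. The sample titles set the groups, because the caNrf2 genotype is spelled tg/g in the sample labels and the treatment label is the same for all 6 mice.

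In this system the selenoenzyme thioredoxin reductase passes electrons from NADPH to thioredoxin, and thioredoxin in turn reduces peroxiredoxins that have scavenged a peroxide. A peroxiredoxin cysteine that is oxidised too far is repaired by sulfiredoxin at the expense of ATP. The cytosol holds Txn1, Txnrd1, Prdx1 and Prdx2, the mitochondrion has its own Txn2, Txnrd2 and Prdx3, and Prdx4 resides in the endoplasmic reticulum. Nrf2 is known to bind, with a small Maf protein, to antioxidant response elements near several of these genes. The comparison asks which of their transcripts differed in skin with active Nrf2.

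The 4 sequences below are the 250 bases before a RefSeq start of the 4 genes that rose (GRCm38.p6). Whether Nrf2 acts on them was not tested. They lie at chr2:152105274-152105523 (plus strand) for Srxn1, chr10:82858956-82859205 (plus strand, the middle one of 3 annotated Txnrd1 starts), chr4:116685349-116685598 (plus strand) for Prdx1 and chr4:57956412-57956661 (minus strand) for Txn1. Each is written 5′ to 3′ on the strand of its gene. Capitals mark matches on either strand to TGACNNNGC, the core of the antioxidant response element, or to TGACTCA, the AP-1 site, which can lie within it.
Srxn1: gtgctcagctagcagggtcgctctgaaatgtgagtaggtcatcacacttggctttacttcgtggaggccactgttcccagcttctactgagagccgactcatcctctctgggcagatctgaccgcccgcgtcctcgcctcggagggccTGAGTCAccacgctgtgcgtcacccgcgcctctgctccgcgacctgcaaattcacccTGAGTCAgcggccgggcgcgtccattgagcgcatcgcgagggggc
Txnrd1: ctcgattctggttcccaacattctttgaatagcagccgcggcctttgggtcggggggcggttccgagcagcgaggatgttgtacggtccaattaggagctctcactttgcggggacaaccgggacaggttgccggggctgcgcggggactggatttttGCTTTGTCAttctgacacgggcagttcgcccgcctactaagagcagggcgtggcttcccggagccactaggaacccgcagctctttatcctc
Prdx1: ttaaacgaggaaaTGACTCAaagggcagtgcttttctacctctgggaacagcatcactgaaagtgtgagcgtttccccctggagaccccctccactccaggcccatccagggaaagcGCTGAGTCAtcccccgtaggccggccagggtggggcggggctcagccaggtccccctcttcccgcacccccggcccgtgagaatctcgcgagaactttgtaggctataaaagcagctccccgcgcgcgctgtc
Txn1: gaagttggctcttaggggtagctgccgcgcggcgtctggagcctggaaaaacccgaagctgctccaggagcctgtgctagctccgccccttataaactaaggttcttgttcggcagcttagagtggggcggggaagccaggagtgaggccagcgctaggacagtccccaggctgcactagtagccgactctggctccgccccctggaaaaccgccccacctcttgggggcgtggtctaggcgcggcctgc

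The Prdx1 window held 1 match to TGACNNNGC, as GCTGAGTCA on the opposite strand, starting 133 bases before the annotated start, and an AP-1 match lay inside it. A second AP-1 match in that window began 237 bases before the start. The Srxn1 window held 2 matches to TGACTCA, beginning 102 and 45 bases before the start, and none to TGACNNNGC. The Txnrd1 window held 1 match to TGACNNNGC, as GCTTTGTCA, beginning 92 bases before the start, and the Txn1 window held neither motif. The windows of Txnrd2, Prdx2, Prdx3, Prdx4 and Prdx5 and the other 2 Txnrd1 starts held neither motif. Of 32536 distinct windows of the same length in the RefSeq table, 10.2% held TGACNNNGC and 4.45% held TGACTCA, against 2 of 11 windows of these genes for each motif. These are matches of letters in 1 short window, and nothing about binding follows from them.

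Skin with active Nrf2 carried more RNA for Srxn1, Txnrd1, Prdx1 and Txn1, whereas Txnrd2, Prdx2, Prdx3 and Prdx4 did not pass the test. Of the 25 probe sets, 14 rose, 0 fell and 11 did not pass. The 14 were all those of Srxn1 (4), Txnrd1 (3), Prdx1 (5) and Txn1 (2). Across all 45037 probe sets tested, 1.04% rose and 0.633% fell by the same rule, limma with Benjamini-Hochberg adjustment and an adjusted p under 0.05. At an unadjusted p under 0.05 the limma counts among the 25 were the same, 14 higher and 0 lower. The probe sets of 1 gene read 1 transcript pool in the same mice, so the 25 are not independent. The members were also chosen with earlier results of these data known. In all 14 the mice of the groups did not overlap, which held for 11.4% of all probe sets in the upward and 11.7% in the downward direction. The median log2 fold change was 0.48 over the 25 probe sets and -0.00 over all. In whole skin, more RNA per cell and more cells of a type cannot be told apart.

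Nfe2l2, which encodes Nrf2, was at intensities of 1136, 1222 and 1242 in caNrf2 and 825, 726 and 774 in control mice, a log2 fold change of 0.63 ± 0.07 (SE, n = 3 per group; limma, adjusted p = 0.00176). Its other probe set, 1457117_at, lay near background at 18.7, 21.8 and 20.1 against 18.3, 18.8 and 16.9, and did not pass (0.16, interval -0.01 to 0.34; limma, adjusted p = 0.315). Whether either probe set reads the transgene RNA was not tested. Arrays correlated at 0.9973 to 0.9980 within groups and at 0.9949 to 0.9962 between them (Pearson r of log2 intensity across probe sets). The tissue was checked with 44 measured markers of 11 skin cell classes, of which 0 rose and 1, the adipocyte hormone Lep, fell (limma; 0 and 7 at an unadjusted p under 0.05). The keratinocyte keratins Krt5, Krt14, Krt1 and Krt10 were far above background. In caNrf2 mice the intensities of 4 basal keratinocyte markers summed to between 28280 and 28648, against 27538 to 28015 in controls. The 4 suprabasal markers summed to between 67385 and 70271, against 65586 to 67377. The 5 fibroblast markers summed to between 48519 and 49809, against 50743 to 52339. The 4 melanocyte markers summed to between 8537 and 9418, against 9946 to 10455. Each of them (Dct, Tyrp1, Pmel and Tyr) was lower at an unadjusted p under 0.05 in limma, with a median log2 fold change of -0.18, but did not pass after adjustment (adjusted p from 0.144 to 0.272). Both keratinocyte sums were thus slightly higher, and the fibroblast and melanocyte sums lower, in caNrf2 skin without overlap. The suprabasal sums were barely apart (67385 against 67377), and each suprabasal marker overlapped by itself. Of the basal markers only Krt14 did not overlap (log2 fold change 0.10), while Krt5 was at 0.00 and Trp63 and Col17a1 were at -0.06. The list medians were -0.03 (basal) and 0.04 (suprabasal). The part of these sums in the results below was not tested.

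**Figure D1:**
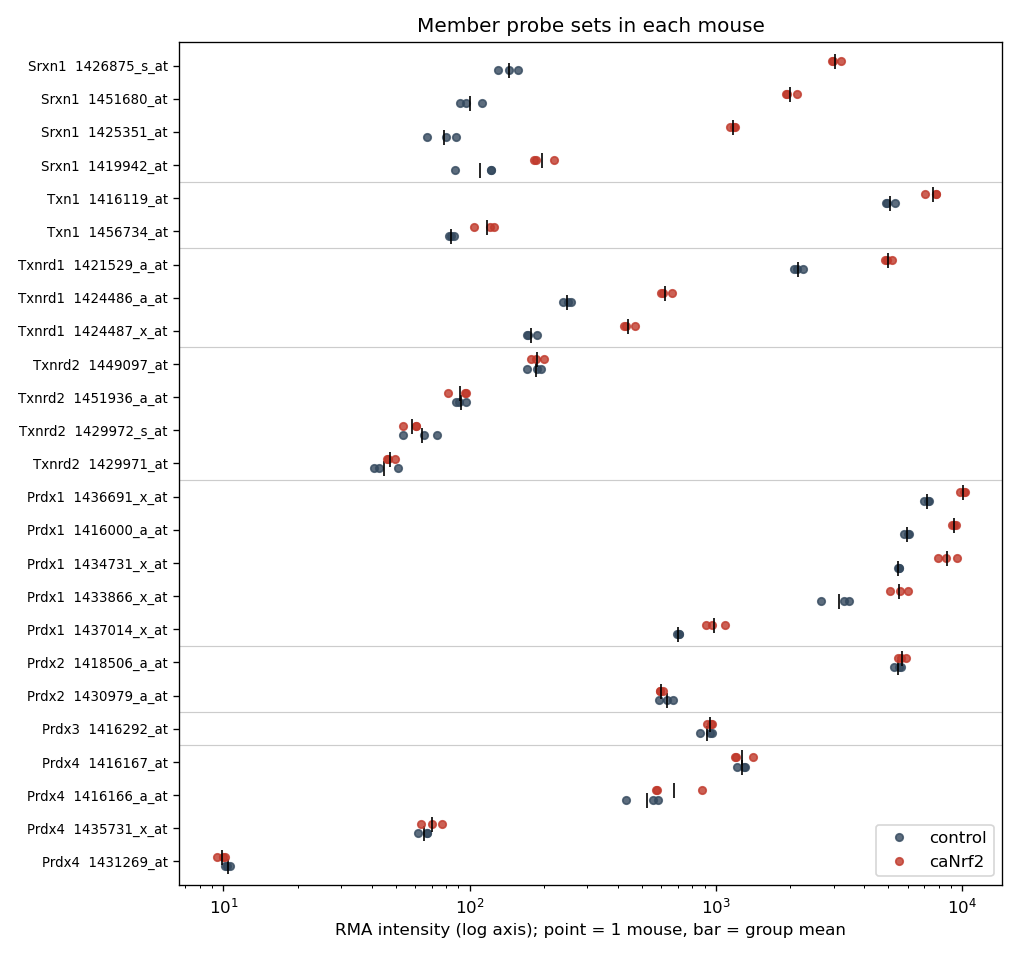
RMA intensity of each of the 25 probe sets (rows, named by gene and probe set) on a log axis, with 1 point per mouse and a bar at each group mean (n = 3). The points of the groups are apart in the 14 probe sets of Srxn1, Txn1, Txnrd1 and Prdx1 and overlap in the other 11.

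Srxn1, the repair enzyme, changed most. Its brightest probe set, 1426875_s_at, read 2947, 2987 and 3208 in the caNrf2 mice and 144, 157 and 130 in the controls. Each caNrf2 mouse lay more than an order of magnitude above every control, and the caNrf2 mice differed little from each other. The geometric mean was 21.2-fold higher (95% confidence interval 18.7 to 24.1; log2 fold change 4.41 ± 0.08 SE; limma, adjusted p = 5.4e-09). This was the change of rank 4 among all 45037 probe sets, and the Srxn1 probe sets 1451680_at and 1425351_at ranked 6 and 7.

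Probe set 1451680_at read 1928, 1944 and 2133 against 91.4, 96.4 and 112, a 20.1-fold difference (17.5 to 23.0). Probe set 1425351_at read 1143, 1197 and 1187 against 88.3, 79.8 and 67.1, a 15.1-fold difference (13.0 to 17.5). Both repeat the pattern of the brightest one, with controls far below and no overlap. The remaining probe set, 1419942_at, stood apart, with 186, 219 and 183 against 87.4, 122 and 122. Its groups did not overlap, but the rise was only 1.79-fold (1.47 to 2.19; limma, adjusted p = 0.0109), so probe sets assigned to the same gene ranged from 0.84 to 4.41 on the log2 scale. Without caNrf2 replicate 2 this probe set no longer passed (log2 fold change 0.76, adjusted p = 0.0545). What part of the transcript each probe set reads was not tested.

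Txnrd1, the cytosolic thioredoxin reductase, rose alike on its 3 probe sets. Probe set 1421529_a_at read 4869, 4956 and 5196 in caNrf2 and 2137, 2259 and 2073 in control mice. No control came near the caNrf2 range, and the 2.32-fold rise (2.10 to 2.57) had an adjusted p = 6.24e-06 in limma. Probe set 1424486_a_at read 596, 607 and 665 against 250, 238 and 257, which is 2.51-fold. Probe set 1424487_x_at read 431, 421 and 470 against 171, 173 and 187, which is 2.48-fold. The 3 log2 fold changes of 1.22, 1.33 and 1.31 lay within each other's confidence intervals. A probe set ending in _a_at is shared by transcripts of 1 gene, and one ending in _x_at has probes that may bind other sequences.

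Txn1, the cytosolic thioredoxin that Txnrd1 reduces, rose less. Probe set 1416119_at, brighter on average than 99.1% of all probe sets, read 7067, 7814 and 7805 against 4957, 5340 and 4879. All caNrf2 mice were above all controls, and the rise was 1.49-fold (1.34 to 1.67; log2 fold change 0.58 ± 0.07 SE; limma, adjusted p = 0.00266). The dimmer probe set 1456734_at read 121, 104 and 126 against 86.6, 82.4 and 83.9, a 1.39-fold rise (1.22 to 1.57; limma, adjusted p = 0.0200). The controls agreed closely there while caNrf2 replicate 2 lay nearest to them. Leaving out any array but caNrf2 replicate 2 raised the adjusted p above the threshold, to between 0.0577 and 0.0881.

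Prdx1, a cytosolic peroxiredoxin that scavenges peroxides and is a substrate of Srxn1, rose on all 5 of its probe sets. Each of these also lists Gm21399, a pseudogene in the RefSeq table, so that signal from the 2 loci cannot be told apart. Probe set 1436691_x_at read 9778, 10114 and 10205 against 7009, 7274 and 7307, a 1.39-fold rise (1.27 to 1.53; limma, adjusted p = 0.00352). Probe set 1416000_a_at, the only one of the 5 that does not end in _x_at, read 9084, 9382 and 9285 against 5790, 6055 and 6028, a 1.55-fold rise (1.41 to 1.71; adjusted p = 0.000499). On both, mice of a group lay within a narrow band and the bands were far apart.

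The other 3 Prdx1 probe sets spread more among the caNrf2 mice, and 1433866_x_at also among the controls. Probe set 1434731_x_at read 7923, 9526 and 8564 against 5503, 5469 and 5513, which is 1.57-fold. Probe set 1433866_x_at had the largest Prdx1 change, 1.77-fold (log2 fold change 0.83 ± 0.11 SE), with 5092, 5989 and 5566 against 2654, 3302 and 3479. Probe set 1437014_x_at read 907, 1083 and 959 against 705, 697 and 707, which is 1.39-fold (limma, adjusted p = 0.0139). It no longer passed once caNrf2 replicate 3, control replicate 1 or control replicate 3 was left out (0.0522 to 0.0586). In all 3 probe sets caNrf2 replicate 2 was the highest mouse and caNrf2 replicate 1 the lowest of its group, and no control reached the caNrf2 range.

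Prdx2, also cytosolic and abundant in red blood cells, did not pass on either probe set. Probe set 1418506_a_at read 5648, 5908 and 5471 in caNrf2 and 5512, 5644 and 5295 in control mice, and the groups overlapped. Its log2 fold change was 0.05 (95% confidence interval -0.10 to 0.20; limma, adjusted p = 0.729). Probe set 1430979_a_at read 590, 609 and 594 against 634, 669 and 586, at -0.07 (-0.23 to 0.08). Both intervals lie below 0.34, the lower bound for the brightest Prdx1 probe set. Of 6 erythroid markers 5 were measured and 0 were called (limma; 0 at an unadjusted p under 0.05), and their intensities summed to between 7723 and 8424 in caNrf2 mice, against 8201 to 9992 in controls. Their part in the Prdx2 values was not tested. Of these 5, the probe sets of Hba-a1 and Epb42 lay at background, so the sum rests mostly on a probe set that lists several Hbb genes.

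The mitochondrial members did not pass. Prdx3, the mitochondrial peroxiredoxin, read 918, 952 and 965 in caNrf2 and 941, 967 and 858 in control mice on its 1 probe set, with overlap and a log2 fold change of 0.04 (-0.12 to 0.19; limma, adjusted p = 0.818). Txnrd2, the mitochondrial reductase, read 200, 178 and 185 against 187, 195 and 171 on its brightest probe set, 1449097_at, a log2 fold change of 0.02 (-0.15 to 0.19; adjusted p = 0.899). Its other 3 probe sets lay between -0.13 and 0.09. Txn2, the mitochondrial thioredoxin, which is named here after its values were seen, read 887, 940 and 912 against 870, 902 and 816, at 0.08 (-0.07 to 0.23; adjusted p = 0.549). All 3 genes had overlapping groups. On the probe sets whose values are given here, the upper bounds of 0.19 to 0.23 limit the size of a rise that could have been missed. The upper bound of the Txnrd2 probe set 1429971_at was higher, at 0.28.

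Prdx4, the peroxiredoxin of the endoplasmic reticulum, was not called on any of 4 probe sets. Probe set 1416167_at read 1210, 1416 and 1188 in caNrf2 and 1312, 1300 and 1219 in control mice, at -0.01 (-0.19 to 0.17; limma, adjusted p = 0.961). Probe set 1416166_a_at had the widest spread of all 25, with 573, 875 and 572 against 431, 582 and 557. Here caNrf2 replicate 2 stood well above the rest while the other caNrf2 mice lay within the control range. Its log2 fold change was 0.35 (-0.03 to 0.72; limma, adjusted p = 0.321), and 0.14 without caNrf2 replicate 2. The interval takes in the log2 fold changes of 4 of the 5 Prdx1 probe sets (0.48 to 0.65) and ends below that of the fifth (0.83). Probe set 1435731_x_at lay at 0.11 (-0.08 to 0.29).

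For background, 20 probe sets for genes of the Y chromosome, absent from female mice, had group means from 6.46 to 61.6, and 14 of them were under 20 in both groups. The Prdx4 probe set 1431269_at, at 9.40 to 10.6 in all mice, and 2 probe sets of Txnrd2, 1429972_s_at and 1429971_at, had at least 1 group mean within that range. These 3 probe sets say little about the level of their genes. None of the 14 probe sets that rose had a group mean there.

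**Figure D2:**
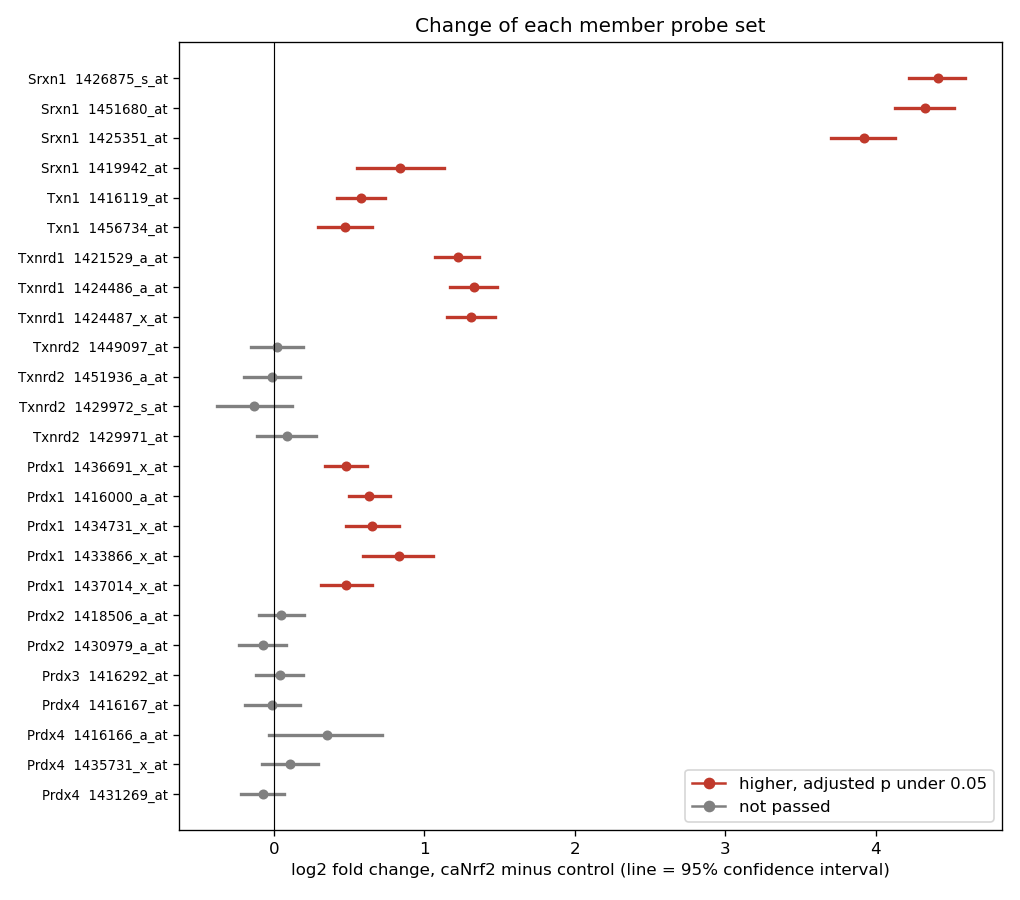
Log2 fold change (caNrf2 minus control, points) of each of the 25 probe sets with its 95% confidence interval (lines) from limma, in red where the adjusted p was under 0.05. Among the Srxn1 probe sets 3 lie between 3.92 and 4.41 and 1 at 0.84, those of Txnrd1 between 1.22 and 1.33, those of Prdx1 and Txn1 between 0.47 and 0.83, and the 11 probe sets of the other genes have intervals that include 0.

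Whether members changed unequally was tested within each mouse as the log2 ratio of 2 probe sets, the brightest of each gene. For Txnrd1 over Txnrd2 the ratio rose above the control mean by 1.06, 1.25 and 1.26 in the caNrf2 mice, against -0.04, -0.01 and 0.05 in the controls. The change of Txnrd1 thus exceeded that of Txnrd2 by 1.19 on the log2 scale, with no overlap between groups (exact two-sided permutation p = 0.1). This p is the smallest that 3 against 3 mice allow. It was reached in all 7 ratios tested, which also leaves each at 0.1 after Benjamini-Hochberg adjustment, so no ratio could pass 0.05.

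Prdx1 rose above Prdx2 by 0.43, above Prdx3 by 0.44 and above Prdx4 by 0.49 on the log2 scale. With 1416000_a_at in place of the brightest Prdx1 probe set, an alternative chosen after seeing the data, these differences were 0.59, 0.60 and 0.65. The Prdx4 probe set used was 1416167_at, whereas 1416166_a_at, at 0.35 (-0.03 to 0.72), was not set against Prdx1 by itself. With the median over the probe sets of each gene, the difference from Prdx4 was 0.55. Among the genes that rose, Srxn1 exceeded Txnrd1 by 3.19, with 3.18, 3.18 and 3.21 in the caNrf2 mice, a narrow band. Txnrd1 exceeded Prdx1 by 0.74 and Txn1 by 0.64. In each of these ratios every caNrf2 mouse was above every control mouse. On the brightest probe sets in these mice, the rise of Srxn1 was thus above that of Txnrd1, which was above those of Prdx1 and Txn1. The Srxn1 probe set 1419942_at, at 0.84, went against this order, as it lay below the Txnrd1 probe sets (1.22 to 1.33). Prdx1 and Txn1 were not set against each other.

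**Figure D3:**
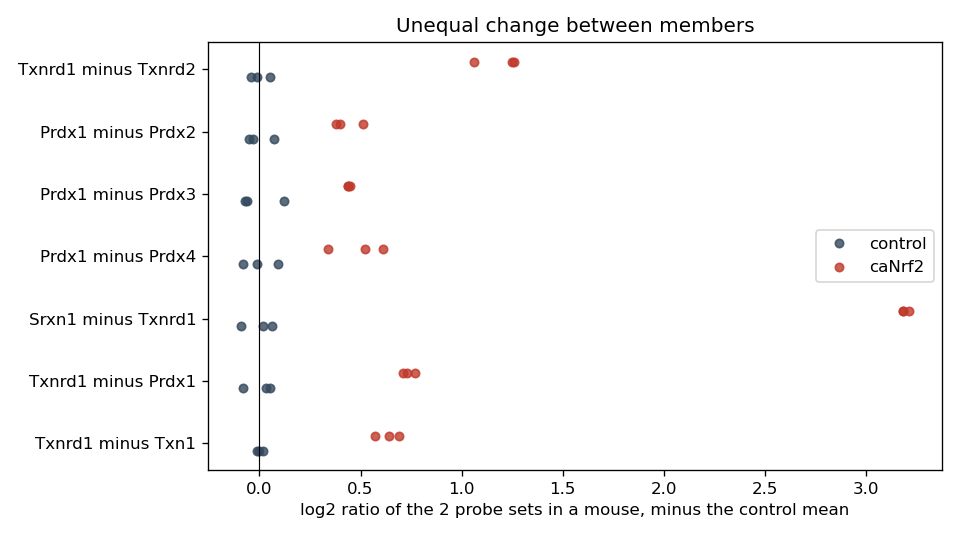
Within-mouse log2 ratio of the brightest probe sets of a pair of genes, minus the mean of the control mice (horizontal axis), for 7 pairs, with 1 point per mouse. All caNrf2 points lie to the right of all control points, from 0.34 for Prdx1 over Prdx4 to 3.21 for Srxn1 over Txnrd1.

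Among genes around the members, Gpx2, Gsr and Cat rose, Msrb3 fell, and most did not pass. Over 58 further genes in 4 lists, each read by its brightest probe set, 3 rose, 1 fell and 54 did not pass in limma. The share that rose was 5.17%, against 1.51% higher and 0.786% lower among the 18193 genes read in that way. The lists were chosen with earlier results of these data known, so no conclusion is drawn from that difference. None of 26 thioredoxin-fold relatives and inhibitors was called (1 higher and 1 lower at an unadjusted p under 0.05), and their log2 fold changes lay between -0.17 and 0.15. The named ones, those with the smallest p, were Txnl1, a thioredoxin-like protein (0.15), Tmx4, a transmembrane relative (-0.17), the glutaredoxin Glrx (0.14) and Tmx2 (-0.12), with adjusted p from 0.251 to 0.352. The median of this list was -0.01, against -0.00 over all genes.

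Among 12 thioredoxin substrates and redox partners, 0 rose and 1 fell, with 1 higher and 1 lower at an unadjusted p under 0.05. The gene that fell was Msrb3, a methionine sulfoxide reductase, at 359, 361 and 373 in caNrf2 and 451, 451 and 440 in control mice. These values do not overlap, and the log2 fold change was -0.29 ± 0.06 (SE; limma, adjusted p = 0.0473). Msrb3 did not pass when 1 array was left out, whichever it was (0.0925 to 0.171), nor after a further quantile normalization (0.0838) or centring on the median (0.0549). Map3k5, a stress kinase that thioredoxin binds, was at 0.19, and the sestrins Sesn2 and Sesn3 were both at -0.13; their adjusted p lay between 0.192 and 0.404. Over the 12 genes the median was -0.04.

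Thioredoxin reductases carry selenocysteine. Of 9 genes of selenocysteine synthesis, insertion and recycling and their relatives, 0 were called in limma on their brightest probe sets (0 higher and 1 lower at an unadjusted p under 0.05). The list had a median of -0.07. The smallest p among these was that of Secisbp2l, which is related to the selenocysteine insertion factor Secisbp2, at -0.25 (adjusted p = 0.158). The elongation factor Eefsec, the enzyme Sepsecs and Sephs1 lay between -0.08 and -0.07. A dimmer probe set of Scly, the selenocysteine lyase, did pass, and is named here after its values were seen. It read 57.6, 62.1 and 55.3 in caNrf2 and 77.7, 72.6 and 75.6 in control mice, without overlap, at -0.37 (-0.52 to -0.21; limma, adjusted p = 0.0326), whereas the brightest Scly probe set was at 0.06 (-0.10 to 0.23). The dimmer one passed in only 1 of the 6 fits with an array left out, that without caNrf2 replicate 2, and the adjusted p of the 6 ran from 0.0421 to 0.14. Its caNrf2 mean of 58.3 lay within the range of the Y chromosome probe sets (6.46 to 61.6), so it says little about the level of Scly.

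Of 11 other peroxidases and superoxide enzymes, 3 rose, 0 fell and 8 did not pass (limma; 4 higher and 0 lower at an unadjusted p under 0.05). Gpx2, a glutathione peroxidase, read 2354, 2458 and 2585 against 108, 123 and 95.1, which is 22.8-fold. Gsr, which recycles glutathione as Txnrd1 recycles thioredoxin, read 859, 913 and 983 against 424, 411 and 360, which is 2.31-fold. Cat, the catalase of peroxisomes, read 3569, 5207 and 4054 against 1853, 2024 and 2218, which is 2.08-fold (1.71 to 2.54; limma, adjusted p = 0.00227). None of these 3 genes had overlapping groups, and on these probe sets Cat differed most among the caNrf2 mice. The other Cat probe set, 1416430_at, was closer among mice, at 3334, 3766 and 3674 against 1493, 1639 and 1646. It was 2.25-fold higher (limma, adjusted p = 2.13e-05). The other Gsr probe set, 1421817_at, was 2.27-fold higher (limma, adjusted p = 4.14e-05). Sod1, the cytosolic superoxide dismutase, was at 0.27 (0.11 to 0.44) and did not pass (limma, adjusted p = 0.104). Its adjusted p was 0.0164 with an intensity trend and robust variances, the only alternative in which it passed. The other 4 Sod1 probe sets lay between -0.08 and 0.22, and 0 of them were called. The list median was -0.01, so the rises were few and large.

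**Figure D4:**
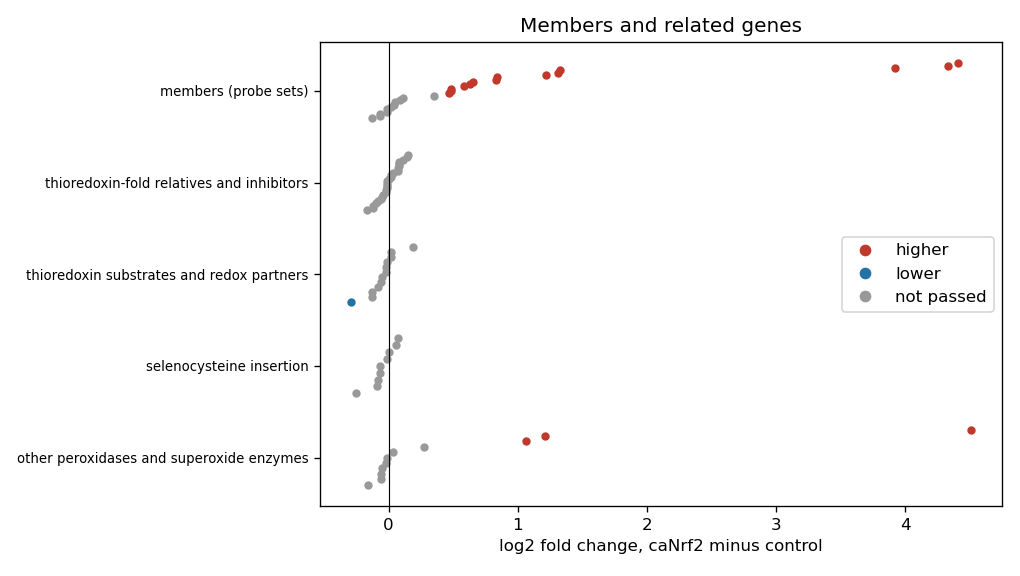
Log2 fold change (caNrf2 minus control) of the 25 member probe sets and of the 58 genes of the 4 lists, each point a probe set, coloured by its limma call; the vertical spread within a row only separates points. The members hold 14 of the rises, the other peroxidases and superoxide enzymes hold 3 (Gpx2 at 4.51, Gsr at 1.21 and Cat at 1.06), and Msrb3 at -0.29 is the 1 fall.

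The genes most like Srxn1, Txnrd1 and Prdx1 were sought by the root mean square difference, over the 6 arrays, of log2 intensity minus the control mean. For Srxn1 they were Gpx2 (difference 0.0781), the quinone reductase Nqo1 (0.0888) and the alcohol dehydrogenase Adh7 (0.689), so that only 2 genes came near it. For Txnrd1 they were the sulfide oxidase Sqor (0.0396), the acyl-CoA oxidase Acox2 (0.0477) and the glycine transporter Slc6a9 (0.0522), with rises of 1.26, 1.25 and 1.16 on the log2 scale. For Prdx1 they were the carboxylesterase Ces1g (0.0345), whose group means of 16.3 and 11.5 lay at background, the channel protein Panx1 (0.0366) and the phosphoglucomutase Pgm1 (0.0395). The measure takes in the change between groups, so genes with a like fold change come first.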

How the data were processed

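The authors deposited linear intensities per probe set, made with RMA per the submitters' processing notes, from biotinylated cRNA of 2 ug total RNA per the labels. The RMA version is not given in the sources used here. RMA equalises array distributions, so a shift of most transcripts would not be seen. The 64 control probe sets were left out. Symbols came from the platform annotation and were updated by Entrez identifier with RefSeq (GRCm38.p6): 34945 probe sets had 1 symbol, 932 several and 9160 none. Log2 intensities of 45037 probe sets were fitted with limma 3.58.1 (R 4.3.3; lmFit, eBayes), with group as the only term, 4 residual and 5.72 prior degrees of freedom, and Benjamini-Hochberg adjustment. Levels are intensities, fold is the ratio of geometric means, and brackets hold 95% confidence intervals. No read depth applies, and the 3 mice per group limit the precision. The fit was tested on simulated data. Ratios of members used exact permutation tests (SciPy 1.17.1). Of 9 pairs planned, the 2 with Prdx5 and Prdx6 could not be formed, and since no probe set names Prdx1 alone, its brightest shared one was used. Named genes are all members, Nfe2l2, 4 genes per list with the smallest p, and 3 nearest neighbours of Srxn1, Txnrd1 and Prdx1 without uncharacterised symbols. Members and lists were chosen with earlier results of these data known. Alternatives were further quantile normalization, median centring, log2(value + 16), a mean intensity of at least 32, an intensity trend with robust variances, array weights, 1 probe set per gene, a replicate block, each array left out, and, for the ratios, the median over a gene's probe sets.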

Additional observations from a re-analysis of the deposited data

How the results depend on the processing

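The count of member probe sets that rose was 14 under 7 alternatives and 12 to 13 with 1 array left out. With 1 single-symbol probe set per gene it was 3. There Srxn1, Txn1 and Txnrd1 of 7 genes were called, and Prdx1, which has no such probe set, was not fitted. No member fell under any alternative. All 7 ratios between members kept their direction in every alternative run for them. Over all probe sets, 470 rose and 285 fell. With 1 array left out 280 to 354 rose and 79 to 270 fell; the fall count was 428 with log2(value + 16), 610 with an intensity trend and robust variances, and 177 with the replicate block. The fall among related genes (1, Msrb3) became 0 with a further quantile normalization, with centring on the median, with the replicate block and with each array left out (0 to 0). Deviations from the group means correlated at 0.041, 0.157 and 0.083 between same-numbered mice, and at -0.139 to 0.069 between differently numbered ones. For each control mouse the same-numbered caNrf2 mouse had the highest value, though all were small. These values do not settle whether the numbers pair mice, and the main fit did not pair them. With the replicate block 14 member probe sets rose, and over all probe sets 342 rose and 177 fell. Of the member probe sets that did not pass, those named next changed sign near 0, and the others kept theirs in every alternative. With 1 array left out, Txnrd2 1449097_at ran from -0.03 to 0.06, with values below 0 (-0.02 and -0.03) without caNrf2 replicate 1 or control replicate 3. Txnrd2 1451936_a_at ran from -0.05 to 0.07, above 0 (0.07 and 0.02) without caNrf2 replicate 3 or control replicate 1, and was 0.01 after a further quantile normalization. Prdx3 was -0.01 without control replicate 3. Prdx4 1416167_at ran from -0.09 to 0.04, above 0 (0.02, 0.04, 0.01 and 0.00) when caNrf2 mouse 1 or 3 or control mouse 1 or 2 was left out, and was 0.01 after a further quantile normalization. For these the cause was not tested. Signal at background limits 3 of the 25 probe sets.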

Other observations

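Other relatives from the same lists, chosen after their values were seen, were close to their controls. Txnrd3, the third thioredoxin reductase, read 290, 279 and 295 in caNrf2 and 297, 282 and 287 in control mice, with overlap, and its log2 fold change was -0.00 (95% confidence interval -0.14 to 0.14; limma, adjusted p = 0.988). Its other 2 probe sets lay at 0.08 and 0.12. Txnip, the protein that binds and inhibits thioredoxin, read 1947, 1928 and 1934 against 1744, 1748 and 1877. Those groups did not overlap, but the log2 fold change of 0.11 (-0.03 to 0.26) did not pass (limma, adjusted p = 0.379).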
